A study of Sus scrofa with 12 samples.

Results

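Among the mRNAs assembled from pig testis reads, 298 genes carried no symbol, were at or near 0 in the testes of 30-day-old boars and were read at 120 days in both breeds or in 1 of them. They were selected on the deposited counts: an assembled gene (identifier MSTRG) with no symbol entered when its count was at most 3 in each of the 6 libraries of 30 days and its mean count over the 6 libraries of 120 days was at least 20. They make up 298 of 821 assembled genes without a symbol, of 1008 assembled genes and of 21674 mRNAs in all. The rule used the difference between the ages, so the levels at 30 and 120 days are given as a description and were not tested. It did not use the difference between the breeds at 120 days, which was tested. A gene low in 1 breed could, however, enter only through the other. For such genes the fold and p-value between the breeds are given as a description.

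The study sequenced testis RNA of Hezuo (HZ) boars, a small Chinese breed, and of Landrace (LC) boars. The 12 libraries fall into 4 groups of 3 boars: HZ at 30 days (Ha), HZ at 120 days (Hb), LC at 30 days (La) and LC at 120 days (Lb). The testes were taken by castration, all animals came from 1 breeding company, and each library is a separate boar. RNA was depleted of ribosomal RNA and read by strand, so transcripts without a poly(A) tail could be read as well.

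In a young testis the tubules hold Sertoli cells and early germ cells, and meiosis starts as the animal nears puberty. Spermatocytes then pass through meiosis and become spermatids, which pack their DNA with protamines. Germ cells at these stages are known for transcribing many loci that other tissues keep silent, including intergenic transcripts without a known protein product.

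The summed mRNA counts ranged from 17165519 in Hb3 to 23758931 in Ha1. Library Hb1 stood apart from Hb2 and Hb3 in the Leydig cell markers, whose summed level was 4066 CPM (counts scaled to library size, with TMM factors over the 12 libraries) in Hb1, 331 in Hb2 and 268 in Hb3. Counts of members between the breeds are therefore also given without Hb1.

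At 30 days, 106 of the 298 genes had no read in any of the 6 libraries. The highest 30-day count was 1 in 100 genes, 2 in 62 and 3 in 30. "Silent" thus holds to within 3 reads per library, and a count of 0 allows up to 3 counts. Summed over all 298 genes, the counts were 64.5, 103 and 109 in Ha1, Ha2 and Ha3, and 128, 81.2 and 97.0 in La1, La2 and La3. At 120 days the sums were 43863, 42032 and 36815 in Hb1, Hb2 and Hb3, and 39362, 40057 and 33203 in Lb1, Lb2 and Lb3. All of the 120-day libraries lay far above all of the 30-day libraries, as the rule requires. In bulk tissue, fewer cells of a type and less RNA per cell cannot be told apart. Even so these genes took a small share of the mRNA counts at 120 days, between 0.169% in Lb1 and 0.214% in Hb3.

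Most of the genes were read at a modest level. Their mean count at 120 days had a median of 62.2, with quartiles of 34.6 and 140, and 6 genes had a mean of at least 1000. The 10 highest took 27.1% of the summed counts. At least 10 counts were present in all 6 of the 120-day libraries for 201 genes, and more than 3 counts for 245.

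The genes next to the thresholds show where the rule divides a continuous range. MSTRG.15148 and MSTRG.15807 entered with a mean count of 20 at 120 days, while MSTRG.18595 and MSTRG.2620 missed it with 19.8. MSTRG.7568 and MSTRG.8210 entered with a 30-day count of 3 and means of 1502 and 1260 at 120 days. MSTRG.17652 and MSTRG.21994, at 36.5 and 39.2 at 120 days, missed it with a 30-day count of 4. MSTRG.11244, an assembled gene that the study also lists among its mRNAs, stayed outside because its mean was too low, with counts of 17, 29 and 10 in Hb and 2, 2 and 0 in Lb.

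The gene with the highest count was MSTRG.7568, whose best protein match in the deposited annotation is synaptogyrin-1, a protein of synaptic vesicle membranes. Its counts were 2297, 854 and 1631 in Hb1, Hb2 and Hb3 and 2165, 1300 and 764 in Lb1, Lb2 and Lb3. The groups overlapped, and the boars of a breed differed more than the breeds did. MSTRG.19044 followed with 1191, 2218 and 1401 in Hb and 1726, 908 and 1559 in Lb, and it had no read in any 30-day library. MSTRG.1061 had 982, 1634 and 925 in Hb and 1762, 868 and 952 in Lb. Neither of these has a protein match, and in both the breeds overlapped.

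Per length, the order changed. By FPKM (fragments scaled by transcript length and by mapped fragments), MSTRG.8210, matched to an antigen WC1.1-like protein of the scavenger receptor family, was the highest, with 98.5, 68.8 and 59.6 in Hb and 45.8, 96.1 and 77.7 in Lb. MSTRG.7568 was next, with a mean FPKM of 43.4 over the 6 libraries of 120 days. The mean FPKM was 38.7 for MSTRG.3311, 32.6 for MSTRG.5303, 31.1 for MSTRG.25364 and 26.1 for MSTRG.21718. MSTRG.19044, with the longest implied transcript of the 298 genes (6276 nt), ranked 2 by CPM and 37 by FPKM. Abundant genes also differed in how even they were across boars. MSTRG.25364 varied widely within a breed, with counts of 404, 1563 and 2178 in Hb and 948, 358 and 705 in Lb. MSTRG.3311 was even across boars, with 802, 1011 and 663 in Hb and 670, 633 and 736 in Lb. MSTRG.5303 had 661, 306 and 352 in Hb and 468, 681 and 548 in Lb. None of these genes was called between the breeds by edgeR.

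The summed level of the 298 genes at 120 days was 2543, 1952 and 2428 CPM in Hb1, Hb2 and Hb3, and 1821, 1886 and 1704 CPM in Lb1, Lb2 and Lb3. Every Hb library lay above every Lb library, although the lowest of Hb was only slightly above the highest of Lb.

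Like this sum, the summed spermatid and spermatocyte markers were higher in every Hb than in every Lb library. The 10 spermatid markers were all in the table, with PRM1 (protamine 1) the most abundant, and their summed level was 6524, 5789 and 8232 CPM in Hb and 4193, 3452 and 3154 CPM in Lb, against 4.99, 5.54 and 6.48 in Ha and 8.87, 7.74 and 4.41 in La. Of the 10, 1 was called between Hb and Lb, beside 1.2% of all mRNAs called lower in Lb. AKAP4, a protein of the sperm tail, was lower in Lb (log2 fold change -1.10, SE 0.206, adjusted p = 0.0283 by edgeR). PRM1 (-0.97, adjusted p = 0.0300) and ODF1 (-0.79, adjusted p = 0.0275) missed only the threshold on fold change by edgeR. An unadjusted p under 0.05 was found for 5 of the 10, and DESeq2 called 1 lower. The median log2 fold change of the 10, Lb over Hb, was -0.80. TNP1 and SPACA3 themselves meet the count rule of the assembled genes, and SPACA3 was at 0 in Hb1 and Lb2. All 8 spermatocyte markers were present, led by PIWIL1, and summed to 783, 676 and 651 CPM in Hb and 502, 485 and 494 CPM in Lb, against 31.7, 35.6 and 19.9 in Ha and 16.1, 14.1 and 12.7 in La. By edgeR 0 of the 8 were called between the breeds, with 4 at an unadjusted p under 0.05 and 1 called lower in Lb by DESeq2. Their median log2 fold change was -0.39. PIWIL1 alone had a mean of 455 CPM in Hb and 309 CPM in Lb. SYCP3 went the other way, with 3.68 CPM in Hb and 6.11 CPM in Lb, while the others of the list were lower in Lb. Of all mRNAs tested, 25.5% had an unadjusted p under 0.05, which is the background for the unadjusted counts of all these lists. Both lists thus summed far lower at 30 than at 120 days, and at 120 days lower in all Lb than in all Hb libraries. The sum of the assembled genes had the same order of groups. Within Hb the boars ranked differently in these sums. The part of spermatids and spermatocytes in the levels of the assembled genes was not tested.

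**Figure D1:**
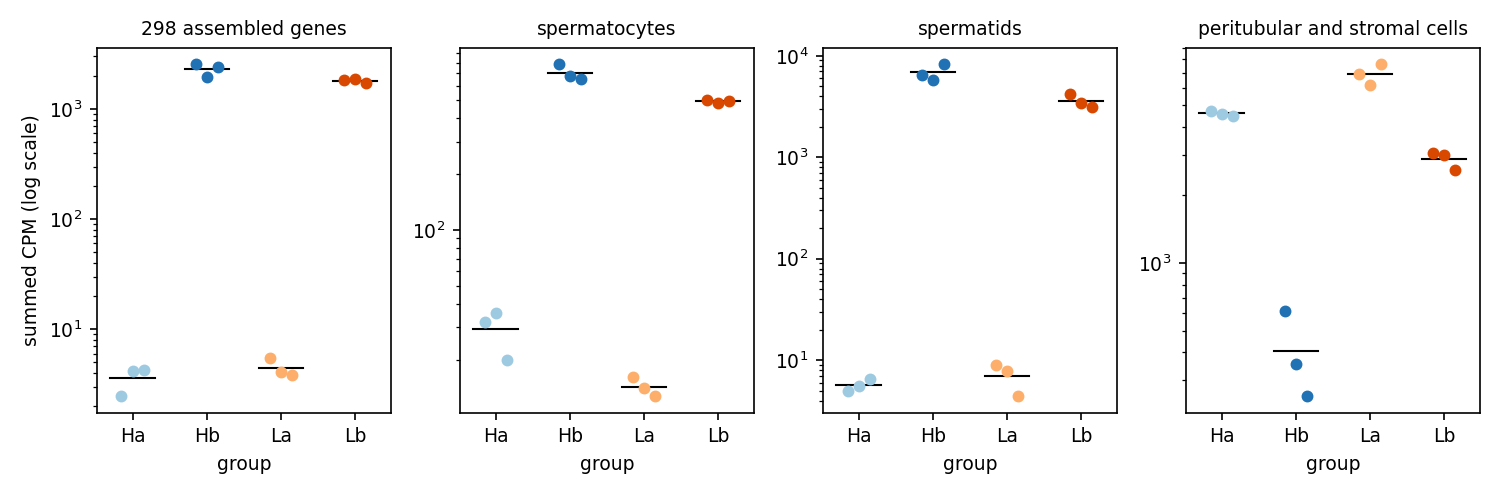
Summed CPM (log scale, a separate axis for each panel) of the 298 assembled genes and of the spermatocyte, spermatid and peritubular and stromal marker lists. Each point is a library, each bar the mean of 3 boars of a group. The assembled genes and the spermatocyte and spermatid lists are high in the 120-day groups, Hb above Lb. The stromal list is lowest in Hb, at 608, 354 and 255 CPM.

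The peritubular and stromal markers ran the other way between the breeds. Of 10 peritubular and stromal markers, 5 were called higher in Lb and 0 lower by edgeR, beside 2.65% and 1.2% of all mRNAs tested. An unadjusted p under 0.05 was found for 9 of the 10, and DESeq2 called 6 higher. COL3A1, a fibrillar collagen, was the most abundant. The list summed to 608, 354 and 255 CPM in Hb and 3084, 3007 and 2571 CPM in Lb. At 30 days it stood at 4731, 4586 and 4509 CPM in Ha and 6908, 6180 and 7613 CPM in La. COL1A1 had the largest change of the list, 6.94 ± 2.56 CPM (SD, n = 3) in Hb and 155 ± 14.1 CPM in Lb (log2 fold change 4.53, SE 0.262, adjusted p = 0.000951 by edgeR).

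Sertoli and Leydig cell markers were present in all groups. The 8 Sertoli markers, CLDN11 the most abundant, summed to 405, 579 and 467 CPM in Hb and 605, 753 and 640 in Lb, against 1270, 1210 and 1664 in Ha and 2642, 3213 and 2914 in La. By edgeR 0 of 8 were called between Hb and Lb, with 3 at an unadjusted p under 0.05 and 1 called higher by DESeq2. The 7 Leydig markers, CYP17A1 the most abundant, summed to 4922, 7417 and 3086 CPM in Lb, beside the uneven Hb values above, and to 10086, 9586 and 8750 in Ha and 13676, 9326 and 11211 in La. By edgeR 0 of 7 were called, with 3 at an unadjusted p under 0.05, 0 called by DESeq2 and 1 by limma on log2(FPKM + 1). The summed level, led by CYP17A1, was thus higher in Hb1 and in all Lb libraries than in Hb2 and Hb3. The steroid dehydrogenases HSD17B3 and HSD3B1 did not have this order. HSD17B3 had 93.2, 138 and 151 CPM in Hb and 163, 172 and 186 in Lb, and HSD3B1 had 29.0, 19.5 and 28.1 CPM in Hb and 22.8, 47.9 and 38.0 in Lb. For spermatogonia, 10 of 11 markers were in the table, led by DDX4, with 855, 815 and 813 CPM in Hb, 699, 636 and 654 in Lb, 355, 352 and 293 in Ha and 215, 215 and 224 in La. By edgeR 0 of the 9 tested were called, with 2 at an unadjusted p under 0.05 and 0 called by DESeq2. Their median log2 fold change, Lb over Hb, was 0.24, opposite in sign to the difference of the sums, in which DDX4 alone had a mean of 570.0 CPM in Hb and 391 CPM in Lb. With age the list went both ways: GFRA1, UTF1, NANOS2 and SALL4 were called lower at 120 days in both breeds, and DDX4, ID4 and STRA8 higher.

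The summed endothelial and macrophage markers were lower in every library of 120 days than in any of 30 days. Of 5 endothelial markers, led by VWF, 1 was called higher in Lb by edgeR, beside 2.65% of all mRNAs tested. An unadjusted p under 0.05 was found for 2 of the 5, and DESeq2 called 1 higher. The list summed to 173, 305 and 186 CPM in Hb, 316, 497 and 278 in Lb, 669, 681 and 616 in Ha and 795, 627 and 756 in La. Of 5 macrophage markers, led by CSF1R, 1 was called higher in Lb by edgeR, beside the same 2.65% of all mRNAs tested. An unadjusted p under 0.05 was found for 3 of the 5, and DESeq2 called 2 higher. The sums were 17.5, 20.1 and 10.7 CPM in Hb, 21.3, 37.8 and 35.9 in Lb, 124, 101 and 106 in Ha and 122, 107 and 115 in La. No marker of these 8 lists that is in the table was at 0 in all libraries of a group. The part of these cell types in the differences between the breeds was not tested.

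Between the breeds at 120 days (Hb vs Lb), the assembled genes moved in both directions. Calls come from edgeR's quasi-likelihood test and need an adjusted p (Benjamini-Hochberg, over all mRNAs tested) under 0.05 together with an absolute log2 fold change over 1. Of the 298 genes, 292 passed the filter on low counts, and 14 of them were called higher in Lb and 25 lower. Over all 16311 mRNAs tested, 628 were called, which is 3.85%, with 432 (2.65%) higher and 196 (1.2%) lower in Lb. The called share of the assembled genes was 13.4% (4.79% higher, 8.56% lower).

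That share has to be read with the way the genes were selected. A gene with few reads in 1 breed could enter only through the other, and 12 of the 298 were at no more than 3 counts in every library of a breed (6 in Hb, 6 in Lb). The same holds for genes above 3 counts whose mean in a breed was under the mean that the rule requires. These were not counted, so the 12 are only part of the genes affected. Called genes of this kind that are named below are marked there. How much of the called share follows from the selection was not determined. Among 207 genes with an NCBI identifier that meet the same count rule, 205 were tested and 9 were called in each direction, 8.78%. The median log2 fold change, Lb over Hb, was -0.41 over the 292 assembled genes, -0.46 over the 205 and 0.00 over all mRNAs tested. With genes that were at 0 in a breed set to their lower bound, the medians were the same to 2 decimals. The 523 other assembled genes without a symbol had 17 called higher and 19 lower of 382 tested, with a median of -0.13. No test was made of the difference between these groups of genes.

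In 108 of the 292 tested genes (37.0%) the CPM values of the breeds did not overlap, and all 39 called genes were among them. The same held for 32.3% of all mRNAs tested, of which 3.85% were called, and for 37.6% of the genes with an NCBI identifier and the same counts. The number of calls rested on single libraries, among these genes as among all mRNAs. Without Lb2 it fell to 3 higher and 5 lower (97 of all mRNAs called), without Lb3 to 7 and 8 (139), without Lb1 to 8 and 11 (182), and without Hb3 to 6 and 8 (119). Without Hb2 it rose to 23 and 40 (1029), and without Hb1 it was 15 and 22 (622). DESeq2 called 28 higher and 54 lower (1224). On log2(FPKM + 1), limma called 22 higher and 25 lower. The split of all mRNAs moved toward higher calls in that fit too, to 399 higher and 100 lower. All 39 called genes kept their direction in each of these fits, but only 6 were called whichever library was left out: MSTRG.146, MSTRG.1615, MSTRG.9254, MSTRG.20746, MSTRG.21329 and MSTRG.24689.

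**Figure D2:**
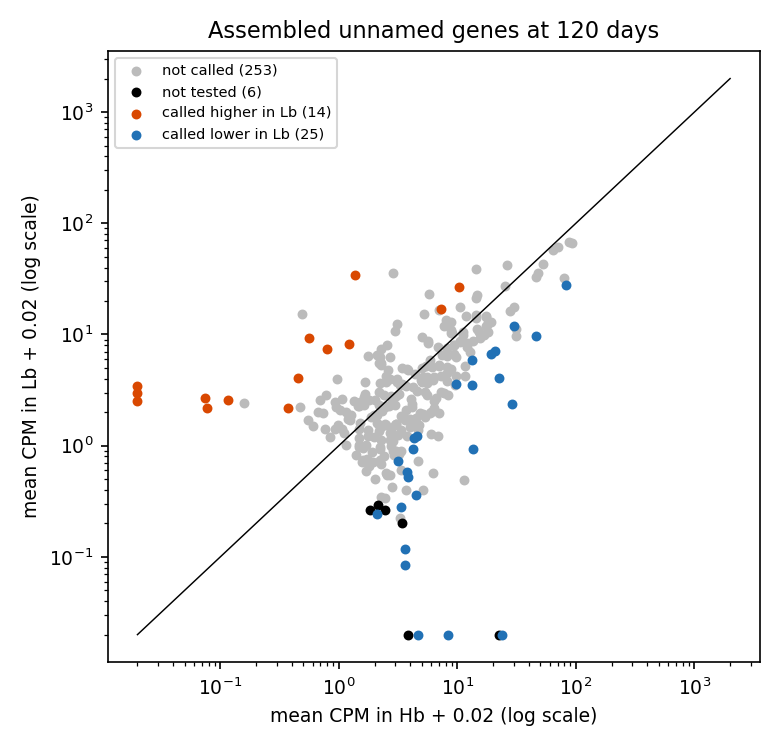
Mean CPM of each of the 298 assembled genes in Hb (x axis) and Lb (y axis), both as CPM + 0.02 on log scales, with the line of equal levels. Points are coloured by call: 14 genes were called higher in Lb and 25 lower, 253 were not called and 6 were not tested. Points on the left or lower border had no read in a breed.

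Of the genes lower in Lb, several had at most 2 counts in any LC boar of 120 days. MSTRG.146 had counts of 265, 800 and 283 in Hb and 0 in each Lb library, at least 164-fold lower in Lb against a floor of 3 counts per library (adjusted p = 0.00627, edgeR). It lies on chromosome 1, where its assembled lncRNA transcript spans 13011043 to 13033982 on the minus strand in 4 exons. MSTRG.21329 had 134, 115 and 177 in Hb and 0 in each Lb library, at least 57.1-fold lower (adjusted p = 0.00760). It overlaps MYO3B, a class III myosin gene, on chromosome 15, from 76825249 to 76877957 on the minus strand, and reads of overlapping genes may have been divided between them. The assembled lncRNA transcripts of MSTRG.21329 share a splice junction with an annotated gene, so it is uncertain whether it is a gene of its own. MYO3B itself was not called, at 0.886 ± 0.351 CPM (SD, n = 3) in Hb and 2.62 ± 1.94 CPM in Lb. MSTRG.9254 had 98, 39 and 50 in Hb and 1, 2 and 1 in Lb, a ratio of 54.0 (95% exact counting interval 20.8 to 200.3; adjusted p = 0.00953). Intervals and floors cover counting error only. In these 3 genes every HZ boar of 120 days had at least 39 counts and no LC boar had more than 2. All 3 entered the set through Hb alone, so their folds and p-values are a description and no evidence about the set.

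A second set was lower in Lb but still read there. MSTRG.4510, matched to cullin-7, had 592, 282 and 586 in Hb and 60, 37 and 50 in Lb (log2 fold change -3.54, SE 0.431, adjusted p = 0.00980). MSTRG.23652 had 231, 381 and 140 in Hb and 31, 19 and 8 in Lb (-3.83, SE 0.480, adjusted p = 0.0112). It lies on chromosome 18, 52220453 to 52223469, plus strand, in 2 exons. MSTRG.1615 had 91, 77 and 67 in Hb and 8, 4 and 9 in Lb (-3.63, SE 0.456, adjusted p = 0.0112). The lowest Hb boar was above the highest Lb boar by a wide margin in all 3. For MSTRG.23652 and MSTRG.1615, the mean count in Lb was under the mean that the rule requires. Both entered the set through Hb, so their folds and p-values are a description and no evidence about the set. MSTRG.4510 was above that mean in every Lb library. Without Lb2, MSTRG.4510 and MSTRG.23652 were no longer called.

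MSTRG.21882 was both among the most abundant genes and lower in Lb. Its counts were 1723, 1316 and 1340 in Hb and 700, 518 and 530 in Lb, or 83.1 ± 19.9 CPM against 28.0 ± 4.06 (SD, n = 3; log2 fold change -1.52, SE 0.205, adjusted p = 0.0134). The boars of each breed were close together, yet the call was lost without Hb3, Lb2 or Lb3. MSTRG.10873 and MSTRG.10704 were lower in Lb as well. The study names both mRNAs as centres of its network of lncRNAs and mRNAs, and speculates that they might have a part in precocious puberty. It drew that network from genes it had called in Ha vs Hb and in Hb vs Lb. A difference between the breeds was thus already called from these libraries. MSTRG.10873 had 433, 223 and 481 in Hb and 55, 111 and 84 in Lb (-2.42, SE 0.444, adjusted p = 0.0269). MSTRG.10704 had 206, 285 and 227 in Hb and 80, 40 and 95 in Lb (-1.89, SE 0.363, adjusted p = 0.0300). Both are placed on chromosome 6, and both calls were lost without Hb3 or any Lb library.

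Of the genes higher in Lb, MSTRG.24689 had the smallest adjusted p of all 298. Its counts were 28.1, 20.7 and 21.9 in Hb and 583, 835 and 712 in Lb (log2 fold change 4.72, SE 0.280, adjusted p = 0.000951). By limma the log2 difference was smaller, at 3.33 on log2(FPKM + 0.1) and 3.01 on log2(FPKM + 1). MSTRG.24689 was low in every HZ boar and high in every LC boar. It lies on chromosome Y, 42872547 to 42910945, plus strand, with an assembled lncRNA transcript of 3 exons and 2052 nt. MSTRG.20746, matched to lysosome-associated membrane glycoprotein 3, had 25, 21 and 18 in Hb and 155, 211 and 142 in Lb (2.80, SE 0.315, adjusted p = 0.00840).

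Others had at most 2 counts in any HZ boar of 120 days. MSTRG.13808 had 0 in each Hb library and 55, 76 and 53 in Lb, at least 17.3-fold higher (adjusted p = 0.00980). MSTRG.6877 had 0 in each Hb library and 110, 63 and 42 in Lb, at least 19.98-fold higher (adjusted p = 0.0134). MSTRG.8773 had 2, 1 and 0 in Hb and 69, 53 and 45 in Lb, a ratio of 48.2 (95% exact counting interval 16.2 to 236; adjusted p = 0.0112). The ratio of MSTRG.8773 was 98.3 without Hb1. None of these has a protein match, and all 3 lost the call without Lb2. All 3 entered the set through Lb alone, so their folds and p-values are a description and no evidence about the set.

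MSTRG.5828 had 5, 9 and 9 in Hb and 91, 73 and 89 in Lb (log2 fold change 3.26, SE 0.423, adjusted p = 0.0119), and lost the call without Lb3. MSTRG.16362 had 13, 6 and 9 in Hb and 89, 197 and 284 in Lb (4.17, SE 0.594, adjusted p = 0.0150), and lost it without Hb3 or Lb2. MSTRG.22086 had 19, 6 and 14 in Hb and 194, 158 and 111 in Lb (3.33, SE 0.50, adjusted p = 0.0175), and lost it without Hb3 or any Lb library. In these 3 genes no HZ boar of 120 days had more than 19 counts, and every LC boar had at least 73. Their Hb counts were thus all under the mean count that the rule requires at 120 days. These 3 genes entered the set through Lb, so their folds and p-values are a description and no evidence about the set.

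**Figure D3:**
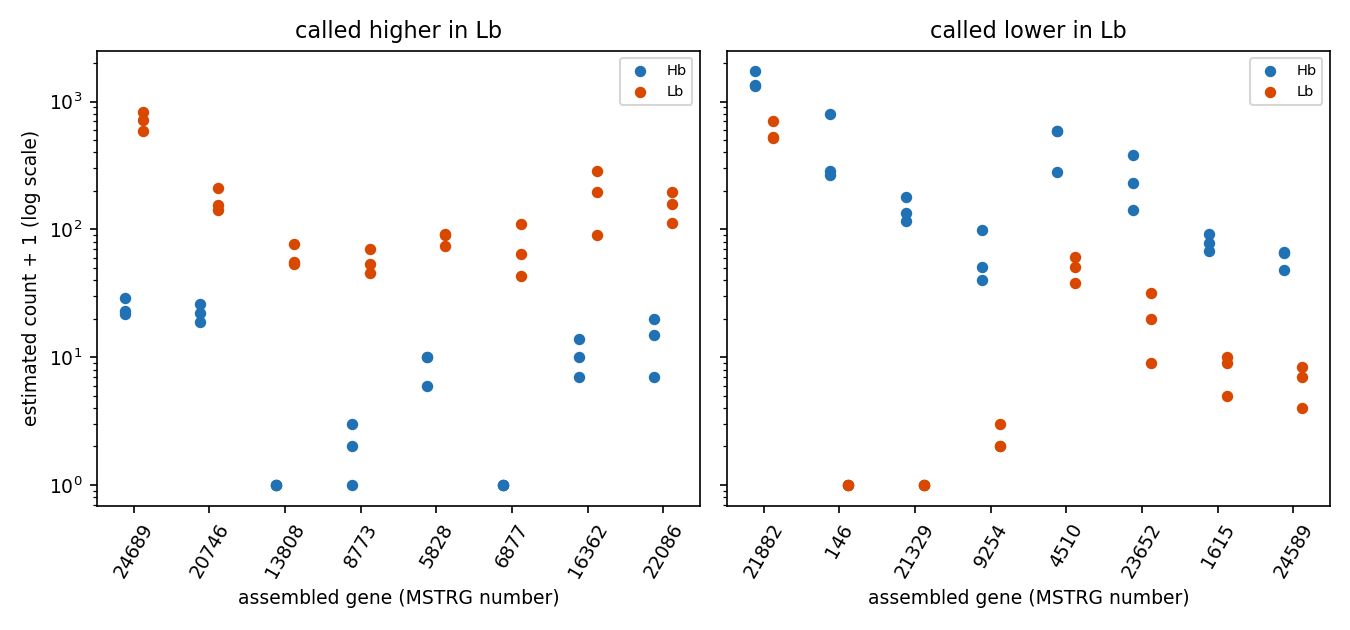
Estimated count + 1 (log scale) in each 120-day library for 8 called genes in each direction, those with the smallest adjusted p, Hb in blue and Lb in orange, 3 boars each; overlapping points hide each other. In each gene the points of the breeds do not overlap, and MSTRG.13808, MSTRG.6877, MSTRG.146 and MSTRG.21329 have 0 counts in all boars of a breed.

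The remaining ones of the 12 genes at the floor in a breed, chosen after their values were seen, are as follows. Each entered the set through the other breed alone, so its fold and call are a description. MSTRG.22318 had 0 in each Hb library and 39, 91 and 28 in Lb, at least 14.7-fold higher. MSTRG.3985 had 3, 1 and 1 in Hb and 25, 62 and 69 in Lb, a ratio of 27.0 (95% exact counting interval 11.3 to 84.3). MSTRG.8358 had 3, 0 and 0 in Hb and 31, 53 and 51 in Lb, a ratio of 38.9 (13.0 to 191). These 3 were called higher in Lb. MSTRG.770 had 63, 28 and 137 in Hb and 0 in each Lb library, at least 32.2-fold lower, and was called lower. Of these 4 calls, that of MSTRG.3985 was lost without Hb3, Lb2 or Lb3, and the others without Hb3 or any Lb library. The fold also rested on single boars. It was at least 17.1-fold for MSTRG.770 without Hb3 and at least 9.51-fold for MSTRG.22318 without Lb2. The ratio was 45.9 for MSTRG.3985 without Hb1 and 23.4 for MSTRG.8358 without Hb2, and MSTRG.8358 without Hb1 was at least 12.9-fold higher. MSTRG.11187 had 105, 111 and 4 in Hb and 0 in each Lb library, and MSTRG.12866 had 1, 1455 and 0 in Hb and 0 in each Lb library. The latter pair did not pass the filter on low counts, and nearly all counts of MSTRG.12866 came from 1 boar.

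On chromosome Y, 4 of the assembled genes were placed, and 3 of them were called between the breeds. Of the Y genes with an NCBI identifier, 8 of 46 tested were called (6 higher, 2 lower in Lb), among them 7 of the 21 with the same counts, and of the other assembled genes without a symbol placed there 2 of 4. Besides MSTRG.24689, MSTRG.24589 had 64.7, 66.0 and 47.2 in Hb and 6, 3 and 7.38 in Lb (log2 fold change -3.60, SE 0.475, adjusted p = 0.0122). It lost the call without Lb2. MSTRG.24675 had 63.0, 87.0 and 51.6 in Hb and 11.0, 14.4 and 9.61 in Lb (-2.67, SE 0.368, adjusted p = 0.0144), and lost it without Hb3 or any Lb library. For MSTRG.24589 and MSTRG.24675, every Lb count was under the mean count that the rule requires. Both entered the set through Hb, so their folds and p-values are a description and no evidence about the set. MSTRG.24673 had 22.2, 21.9 and 17.1 in Hb and 43.1, 54.9 and 28.1 in Lb and was not called (adjusted p = 0.219). The Y-placed genes thus went both ways between the breeds. Their counts are not whole numbers, so reads may have been divided with other features, and their levels are uncertain to that degree. The last pair was chosen after its values were seen.

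Few of the assembled genes resemble a known protein. A protein match was given for 54 of the 298 (18.1%), against 163 of the 523 other assembled genes without a symbol (31.2%), and 4 carried a Gene Ontology term and 0 a KEGG pathway. The most frequent match was cullin-7, a scaffold of a ubiquitin ligase, with 10 genes here and 50 among the others. Loci that match the same protein may share sequence, so reads may have been divided among them. A match to a LINE-1 element, a reverse transcriptase or a retrovirus, sequences of mobile elements, was given for 7 genes here and 9 among the others.

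The 10 matched genes with the highest level include MSTRG.7568, MSTRG.8210 and MSTRG.25364, given above. MSTRG.9689 was even across boars, with counts of 1060, 953 and 815 in Hb and 934, 966 and 761 in Lb. MSTRG.21718, matched to a WW domain-binding protein 11-like protein, had 550, 335 and 471 in Hb and 793, 1006 and 809 in Lb, and was not called (adjusted p = 0.137). All its Lb values were above all its Hb values. MSTRG.20166, matched to the Pol protein of an endogenous retrovirus of group K, had 291, 417 and 99 in Hb and 875, 953 and 624 in Lb. Its groups did not overlap, but it missed the threshold (log2 fold change 1.49, SE 0.375, adjusted p = 0.0604, edgeR). It was called higher in Lb by DESeq2, by limma on both FPKM scales, by edgeR with all 12 libraries in the fit and by edgeR without Hb2. Another mobile-element match showed no such gap between the breeds. MSTRG.16290, matched to LORF2, a LINE-1 protein, had 310, 294 and 393 in Hb and 273, 323 and 206 in Lb. MSTRG.11725, matched to a mouse RIKEN cDNA, had 241, 292 and 231 in Hb and 255, 483 and 578 in Lb. MSTRG.25359 and MSTRG.19393 were both matched to a basic proline-rich protein-like protein. MSTRG.25359 had 429, 532 and 669 in Hb and 347, 30.0 and 223 in Lb, and MSTRG.19393 had 480, 239 and 202 in Hb and 254, 369 and 286 in Lb. By edgeR on the libraries of Hb and Lb, none of the matched genes in this paragraph was called.

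The assembled genes were short. From the ratio of count to FPKM, the implied transcript length had a median of 866 nt (quartiles 611 and 1297, range 293 to 6276), against 1227 nt in the genes with an NCBI identifier and the same counts and 888 nt in the other assembled genes without a symbol. The length could be computed for all 298, for 194 of 207 and for 465 of 523. It is an effective length over all transcripts of a gene, and the difference was not tested.

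The deposited mRNA table holds no positions. The assembled lncRNAs have them, and the numbers of assembled genes follow the genome: of 1126 neighbouring pairs of lncRNA loci on a sequence, 1121 were in rising order, and all 1100 loci that could be checked lay on the same sequence as their flanks. On this basis 239 of the 298 genes were placed on a chromosome and 1 on an unplaced sequence between flanking loci, 35 had a position of their own and 23 were not placed. Chromosomes 13 and 1 held the most, with 28 and 27 genes. Chromosome X held 1 gene (0.336%), against 9 of 207 (4.35%) of the genes with an NCBI identifier and the same counts, 3.69% of all genes with an NCBI identifier and 2.1% of the other assembled genes without a symbol. Chromosome Y held 4 (1.34%), against 21 of 207 (10.1%), 0.319% of all genes with an NCBI identifier and 2.87% of the other assembled genes without a symbol. The X-placed gene, MSTRG.24448, chosen after its values were seen, had 39, 74 and 57 in Hb and 24, 10 and 11 in Lb and was called lower in Lb (adjusted p = 0.0474), a call lost when any library was left out. Its mean count in Lb was under the mean that the rule requires. It entered the set through Hb, so its call is a description.

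Some of the genes had neighbouring numbers. Of the 298, 85 fell into 39 runs of genes no more than 5 numbers apart, the longest with 4 genes. Of the 37 runs with at least 2 tested genes, 20 held log2 fold changes of both signs between the breeds and 17 of 1 sign, and no run held more than 1 called gene. Differences within a run were not tested. MSTRG.12865 had 1147, 644 and 628 in Hb and 273, 194 and 142 in Lb and was called lower in Lb (a call lost without Hb3, Lb2 or Lb3), and the adjacent MSTRG.12866 had 1455 counts in Hb2 and at most 1 in any other library of 120 days. This run was chosen after its values were seen.

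For 35 of the 298 genes, the same assembled gene also holds transcripts that the authors classed as lncRNA, 50 in all. The lncRNA counts never exceeded the gene count in any of the 210 pairs of gene and 120-day library, and their share of the gene count had a median of 49.99%, so they are part of the same reads and not a separate measurement. All 50 transcripts were at 3 counts or below in each 30-day library. They had a median of 3 exons, at most 7, and 14 had 2 exons. Their median length was 764 nt, from 319 to 3479 nt. By class code, 46 were intergenic, 3 shared a splice junction with an annotated gene (all 3 of MSTRG.21329) and 1 was antisense to an annotated gene. MSTRG.8471 had the most, 6 transcripts on chromosome 5 between 81734829 and 81749657, plus strand, and its gene counts were 147, 182 and 143 in Hb and 212, 228 and 201 in Lb, not called. It was chosen after its values were seen.

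The nearest annotated gene with a symbol could be found for these 35 genes only. Few of the 34 distinct neighbours were called higher at 120 days, and the share was not tested against that of all mRNAs. Of 30 tested in Ha vs Hb, 3 were called higher at 120 days and 7 lower, beside 28.2% of all mRNAs called higher in Hb and 23.2% lower. Of 30 tested in La vs Lb, 6 were called higher and 7 lower, beside 27.5% of all mRNAs called higher in Lb and 20.1% lower. The change with age was called different between the breeds (interaction of breed and age over all 12 libraries, edgeR) in 2 of 30 tested neighbours, beside 5.14% of all mRNAs. The median distance was 152972 bp, and 7 of the 35 genes lay within 10 kb of their neighbour, 2 of them overlapping it.

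The neighbour with the largest rise was TEKT3, a tektin of the sperm flagellum, which ends 111 bp from MSTRG.17673 on chromosome 12. Its level was 1.05 ± 0.563 CPM in Ha and 273 ± 58.6 CPM in Hb (SD, n = 3; log2 fold change 8.02, SE 0.409, adjusted p = 5.94e-06), and 0.769 ± 0.0735 in La and 183 ± 14.2 in Lb. MSTRG.17673 itself, from 58773511 to 58783904 on the plus strand, had 242, 191 and 198 in Hb and 126, 146 and 198 in Lb. CCNYL1, a cyclin Y-like gene 13758 bp from MSTRG.21568, had 6.29 ± 3.00 CPM in Ha and 36.0 ± 10.2 in Hb, and 5.09 ± 1.17 in La and 31.0 ± 3.78 in Lb. DMRT2, a transcription factor gene 343758 bp from MSTRG.1536, had 0.796 ± 0.0915 CPM in Ha and 7.50 ± 2.60 in Hb. These 3 were called higher at 120 days in both breeds. The other 3 called in La vs Lb were IGF1, RARB and LOC110257929, and in Ha vs Hb they missed the threshold. IGF1, a growth factor gene 12370 bp from MSTRG.8471, had 26.6 ± 6.44 CPM in La and 78.1 ± 29.7 in Lb. All neighbours in this paragraph were chosen after their values were seen. By edgeR 0 of 29 tested neighbours were called in Hb vs Lb, with 9 at an unadjusted p under 0.05 (25.5% of all mRNAs tested), 2 called by DESeq2 and 1 by limma on log2(FPKM + 1).

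The level within a breed varied between boars. The coefficient of variation within a breed at 120 days, averaged over both breeds, had a median of 0.436 in the 298 genes and 0.317 in the 207 with an NCBI identifier and the same counts. In 26 of the 298 (8.72%) a single library held over 50% of the summed CPM of 120 days, against 5 of 207 (2.42%) and 86 of the 523 other assembled genes without a symbol (16.4%). In the 26 genes this library was Hb1 in 10 genes, Hb2 in 6, Hb3 in 5, Lb2 in 4 and Lb1 in 1. At most 3 counts in at least 1 of the 120-day libraries were found in 53 of 298 (17.8%), 34 of 207 (16.4%) and 203 of 523 (38.8%). The mean counts of these sets also differ, with medians of 62.2, 77.5 and 28.0, and the difference in variation was not tested.

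In 16 of the 298 genes, against 17 of the 207, a boar of 120 days had 0 counts while another had at least 100. In 6 of them both boars were of the same breed, against 14 of the 207. MSTRG.16681, matched to cullin-7, had 0, 246 and 0 in Hb and 0, 233 and 67 in Lb. MSTRG.1870 had 103, 72 and 91 in Hb and 0, 122 and 0 in Lb. MSTRG.7339 had 0, 42 and 138 in Hb and 74, 59 and 0 in Lb. In these 3 genes, chosen after their values were seen, boars with and without reads occurred in both breeds or within LC, so breed alone did not separate them.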

How the data were processed

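Testis RNA of 12 boars was analysed, with each column matched to its group by its label. The authors filtered reads with fastp 0.18.0, removed ribosomal reads with Bowtie2 2.2.8, aligned what remained to Sus scrofa 11.1 using HISAT2 2.1.0 and assembled them with StringTie 1.3.4. The authors deposited an estimated count, not normalized and not always whole, for each gene. FPKM values, as deposited, are scaled for length and mapped fragments. Which tool produced the counts is not given in the sources used here.

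Counts were rounded, filtered with filterByExpr (minimum count 10), TMM normalized and fitted with glmQLFit and glmQLFTest in edgeR 4.0.16 (R 4.3.3) over the whole mRNA table. The standard error is the absolute log2 fold change divided by the square root of F. Alternatives used DESeq2 1.42.0, limma 3.58.1 on log2(FPKM + 1) and log2(FPKM + 0.1) for genes with a mean FPKM of at least 0.1, other filters, a joint fit, a replicate block, other rules for members or neighbours, and each library left out. The steps were tested on simulated data. Tables were made with pandas 2.3.3, intervals with scipy 1.17.1 and figures with matplotlib 3.10.9 in Python 3.11.15.

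The members and lists were chosen with earlier results of these data known. Named are the 6 genes with the highest mean CPM, the 6 with the highest mean FPKM, in each direction the 8 called and not overlapping genes of smallest adjusted p, the 10 highest with a protein match, the study's own assembled mRNAs, genes next to the thresholds and neighbours within 10 kb of a named gene. Neighbours come from RefSeq genes of Sscrofa 11.1, for the 35 genes with a position. Implied length used 120-day libraries where the count was 10 or more and FPKM 0.5 or more.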

Additional observations from a re-analysis of the deposited data

Results flagged for a closer look

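Of 30 tested neighbours of the assembled genes, 2 changed differently with age in the breeds, by an interaction test of breed and age over all 12 libraries (edgeR, same thresholds), beside 5.14% of all mRNAs tested. EIF3E, a translation initiation factor gene 4753 bp from MSTRG.6212, had 227 ± 25.7 CPM in Ha and 399.8 ± 38.99 in Hb, and 344 ± 50.9 in La and 277 ± 19.6 in Lb (SD, n = 3), an interaction of -1.13 on the log2 scale (LC minus HZ, adjusted p = 0.00873). LOC110257929, the nearest annotated gene of the Y-placed MSTRG.24675 and MSTRG.24689 but 413609 and 1689644 bp away, had 40.4 ± 12.4 CPM in Ha and 57.4 ± 6.52 in Hb, and 11.7 ± 3.00 in La and 57.8 ± 7.71 in Lb, an interaction of 1.79 (adjusted p = 0.0141).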

How the results depend on the processing

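The number of mRNAs called in Hb vs Lb (628) was 1224 with DESeq2, 1258 with all 12 libraries in the fit and 97 to 1029 with a library left out. Assembled genes called higher in Lb (14) numbered 28 with DESeq2, 23 and 22 with limma on log2(FPKM + 0.1) and log2(FPKM + 1), 7 among genes at 0 in every 30-day library, 6 among those with a mean of at least 50 and 3 to 23 with a library left out. Those called lower (25) numbered 54 with DESeq2, 6 and 15 under these stricter rules and 5 to 40 with a library left out. Smaller lists hold fewer genes by construction; otherwise the cause was not tested. On log2(FPKM + 0.1) the median of all mRNAs shifted to 0.12. With the replicate block the counts were 154, 4 and 8. The deviations of same-numbered libraries from their group means correlated only weakly, between -0.022 and 0.053. With 3 libraries per group this cannot settle whether the numbers pair the boars. Neighbours called higher at 120 days (3 of them in HZ and 6 in LC) numbered 1 and 1 within 10 kb, where 7 genes have a neighbour, and 3 to 4 and 6 to 7 with a library left out. The block changed no count of neighbours. A count of 0 allows up to 3 counts per library, so levels below that at 30 days were not detectable.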
